A study of Homo sapiens with 4 samples.

Results

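The cytosolic ribosomal protein genes encode the proteins of the ribosome that translates nuclear messages. They were taken as every gene whose symbol follows the RPL, RPS, RPLP or RPSA pattern, without Y-linked copies and pseudogenes, that had at least 1 probe set naming that gene alone. This gave 71 of the 18132 genes measured, of which 41 encode proteins of the large (60S) subunit, 23 encode proteins of the small (40S) subunit and 7 are paralogs of these. The RefSeq gene table of GRCh38.p14 holds 84 genes of this pattern, and the other 13 were not analysed here.

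The cells were U87MG, an established human glioblastoma line, kept at 0.2% oxygen and 5% carbon dioxide and harvested 48 hours after transfection. The control group (2 arrays) received the PCMV control vector, and the NeuroD2 group (2 arrays) received a vector that overexpresses NeuroD2, a basic helix-loop-helix transcription factor of neuronal differentiation. Total RNA was labelled with biotin from its 3′ end and read on human PrimeView arrays, which hold several probe sets for many genes. The labels call the 2 arrays of a group biological replicates without saying how the cultures were kept apart, so p-values measure the spread between these samples, which may be technical.

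Each ribosome carries 1 copy of nearly every ribosomal protein, and the genes are transcribed at matched rates in growing cells. Their messages usually start with a C followed by a run of pyrimidines, the 5′ terminal oligopyrimidine tract, through which mTOR signalling sets how much of the message is translated. Hypoxia lowers mTOR signalling in many cell types. The arrays measured amounts of message and not translation.

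Promoter sequences of 59 of the 71 genes were found in the RefSeq table of GRCh38.p14, with 71 annotated starts in all. Windows from 10 bases before an annotated start to its first 20 bases are shown for genes that the results turn on. They read 5′ to 3′ on the gene's strand. Capitals mark a pyrimidine run that opens the message and is long enough to count as a tract, as defined below. The first set holds RPL27A, the gene that passed the test, the stalk gene RPLP1, the 5S RNA partner RPL11, the small-subunit gene RPS6, the gene with the longest run, RPL39, and RPL3 and RPL13, which had the largest differences among the other members of the large subunit.
RPL27A (chr11:8682782-8682811, plus strand): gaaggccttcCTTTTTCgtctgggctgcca
RPLP1 (chr15:69452808-69452837, plus strand): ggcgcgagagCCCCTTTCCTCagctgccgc
RPL11 (chr1:23691796-23691825, plus strand): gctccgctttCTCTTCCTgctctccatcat
RPS6 (chr9:19380217-19380246, minus strand): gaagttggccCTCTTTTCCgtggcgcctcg
RPL39 (chrX:119791611-119791640, minus strand): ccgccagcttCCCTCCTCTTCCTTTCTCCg
RPL13 (chr16:89560672-89560701, plus strand): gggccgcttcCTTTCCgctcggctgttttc
RPL3 (chr22:39319604-39319633, minus strand): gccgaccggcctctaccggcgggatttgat

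The run in RPL39 is 19 bases long. The RPL3 message opens with CTCT at the annotated start, a run too short to count as a tract. A second set sets paralogs beside their partners, to show whether both copies carry a tract. No window was available for RPL7, RPL39L or RPL3L, so RPL7L1 is shown without its partner.
RPS27 (chr1:153990752-153990781, plus strand): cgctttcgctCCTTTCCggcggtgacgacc
RPS27L (chr15:63157458-63157487, minus strand): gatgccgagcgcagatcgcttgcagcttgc
RPL22 (chr1:6199576-6199605, minus strand): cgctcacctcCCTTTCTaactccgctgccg
RPL22L1 (chr3:170870176-170870205, minus strand): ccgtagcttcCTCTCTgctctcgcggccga
RPL26 (chr17:8383174-8383203, minus strand): gcgtgtagttCTCTTCCCTTTTgcggccat
RPL26L1 (chr5:172958719-172958748, plus strand): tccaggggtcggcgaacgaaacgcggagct
RPL10 (chrX:154398367-154398396, plus strand): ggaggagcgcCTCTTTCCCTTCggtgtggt
RPL10L (chr14:46651762-46651791, minus strand): gtagttaagagagcgcattttgacttcgag
RPL7L1 (chr6:42879606-42879635, plus strand): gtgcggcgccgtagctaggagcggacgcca

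A tract was counted where the first base of the message is C and at least 4 pyrimidines follow. It was found at 42 of the 71 annotated starts of these genes (59.2%), which is 42 of 59 genes (71.2%), and at 1429 of all 35116 promoters in the table (4.07%). Of the paralogs in the second set, RPL22L1 has a tract and RPS27L, RPL26L1, RPL10L and RPL7L1 have none at their annotated starts. A start annotated a few bases away from the one a cell uses would give or hide such a run.

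NeuroD2 belongs to a family that binds E-boxes, of which 2 forms were searched on both strands in the 250 bases before and 50 bases after each start. The form CAGATG was found in 3 of the 71 promoters (4.23%) and in 14.7% of all promoters of that length. CAGCTG was found in 8 (11.3%) and in 17.9% of all. The ETS-type motif CCGGAA, also searched on both strands, was found in 39 (54.9%) and in 17.2% of all promoters. A match is a description of the letters and not a site.

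The 3 genes with CAGATG are shown with 10 bases on either side and the motif in capitals, on the gene's strand. On that strand it reads CATCTG in RPL32 and RPL6. The positions of the motif relative to a start are -128 for RPL32, -28 for RPL6 and -88 for RPS4X.
RPL32 (chr3:12840563-12840588, minus strand): ccggaaggacCATCTGggggttcgga
RPL6 (chr12:112411455-112411480, minus strand): gggcagtgttCATCTGatcattgtat
RPS4X (chrX:72277321-72277346, minus strand): ctcccaccagCAGATGgcaagaaaga

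None of these 3 genes passed the test described next. Their differences were 0.01 for RPL32, 0.03 for RPL6 and -0.02 for RPS4X on the log2 scale.

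The ribosomal protein genes differed little between cells with the NeuroD2 vector and cells with the control vector. The brightest probe set of a gene, by its mean over the 4 arrays, stood for that gene, and differences are NeuroD2 minus control on the log2 scale of the signal. By limma, fitted over all 18132 genes with Benjamini-Hochberg adjustment and a threshold of 0.05, 1 of the 71 genes rose (RPL27A) and 0 fell. Over all genes measured, 1.81% rose and 2.96% fell by the same rule. RPL27A was also the sole member with an unadjusted p below 0.05.

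The median difference of the 71 genes was -0.011 and that of all genes was 0. The median absolute difference was 0.027 for the ribosomal protein genes and 0.111 for all genes, and 64 of the 71 (90.1%) lay within 0.1 of no difference, as did 46.1% of all genes. As signal relative to each gene's own mean, the median over the 71 genes was 0.0035 and -0.0021 on the control arrays and -0.0094 and -0.00078 on the NeuroD2 arrays. No array stood apart in these medians.

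The spread between replicates was small as well. The median absolute difference between the 2 control arrays was 0.056 for the ribosomal protein genes and 0.116 for all genes, and between the 2 NeuroD2 arrays it was 0.017 and 0.071. For 20 of the 71 genes the difference between groups was larger than the difference within either group, and for 51 it was not. The 95% intervals of the 70 genes that did not pass the test all lay between -0.37 and 0.39, which is 0.776-fold to 1.31-fold, and all 70 contained 0. Across all genes, the smallest absolute difference that passed in this fit was 0.37.

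Both NeuroD2 arrays lay above both control arrays in 11 of the 71 genes (15.5%), against 24.2% of all genes. Both lay below in 17 (23.9%), against 26.6% of all genes. The groups overlapped in the remaining 43. With 1 control array left out, groups separate more easily. Both NeuroD2 arrays then lay above the remaining one in 28 genes (without control replicate 1) or 24 (without control replicate 2) and below it in 32 or 37. By the same rule, 43.3% or 34.5% of all genes lay above and 36.8% or 43.8% below.

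Most of these genes read near the top of the array's scale, and differences were smaller there. Of the 71 genes, 55 had a mean signal of 13 or more, where the highest value of any probe set on any array was 14.3. The median absolute difference of these 55 was 0.024, and that of the other 72 genes at this level was 0.041, of which 1 (1.39%) passed the test. Among other genes with a signal from 8 to 12 it was 0.134, and among the 7 ribosomal protein genes in that range it was 0.110. How far the signal level itself narrowed the differences was not tested. In addition, 57 of the 71 genes were represented by a probe set of the s_at or x_at kind, whose probes can also match other transcripts. Processed pseudogenes of ribosomal protein genes are numerous, so such signal may be shared.

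**Figure D1:**
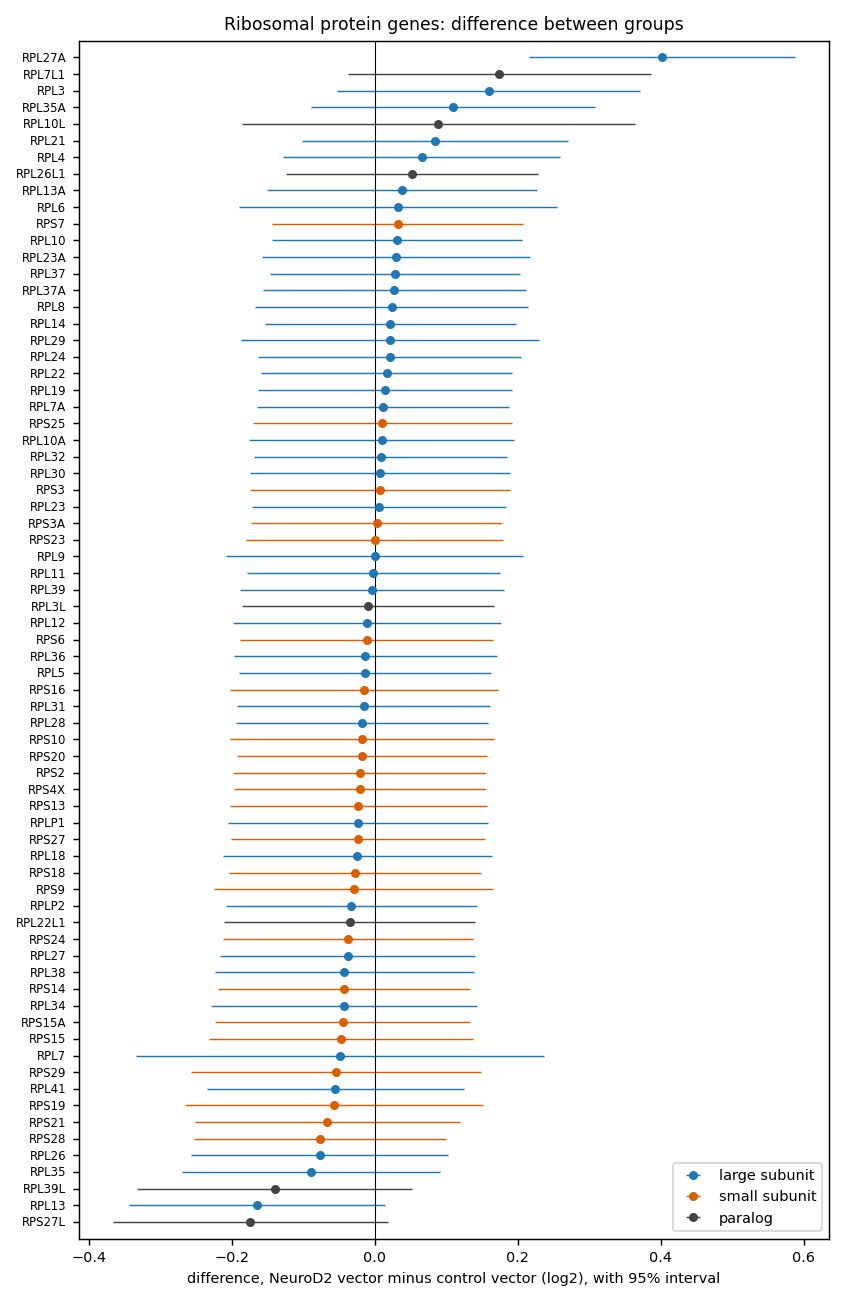
Difference between the NeuroD2 and control groups (log2, horizontal axis) for each of the 71 ribosomal protein genes, sorted from highest to lowest. Points are differences of the means of 2 arrays each, bars are limma's 95% intervals and colours mark the subunit, and the interval of RPL27A is the one that does not contain 0.

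**Figure D2:**
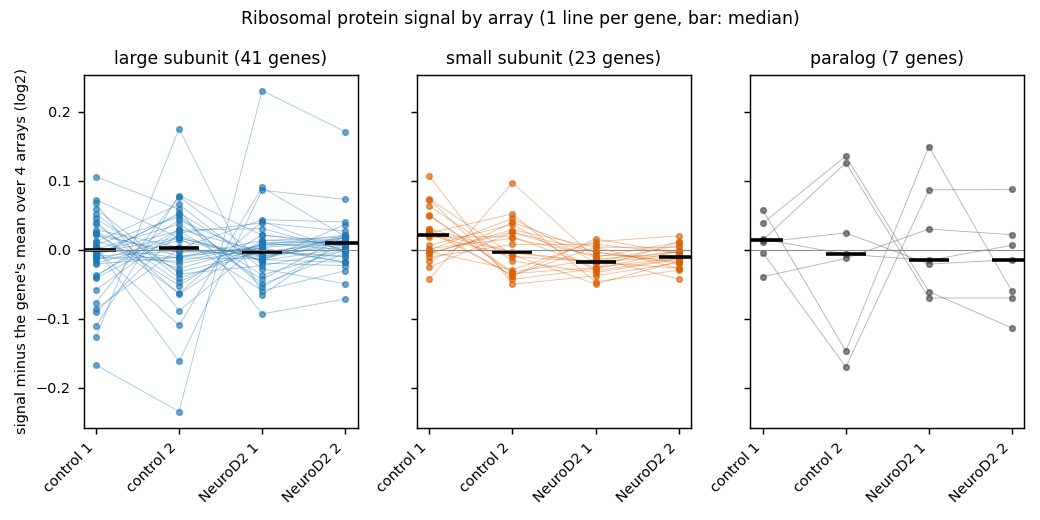
Signal on each array minus the gene's mean over the 4 arrays (log2, vertical axis), with 1 line per gene and a black bar at the median, for the large subunit, the small subunit and the paralogs. The medians of the small-subunit genes were 0.021 and -0.0035 on the control arrays and -0.017 and -0.0099 on the NeuroD2 arrays.

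The checks of the labels and arrays were as follows. NEUROD2 read 5.46 and 5.35 on the control arrays and 7.37 and 7.82 on the NeuroD2 arrays, a rise of 2.19 (limma adjusted p = 0.0044), although the vector's own transcript and the endogenous one were not told apart. Of the markers of glioblastoma lines, 6 of 7 were measured and their mean signal was between 10.2 and 10.3 on each array, with CHI3L1 lowest, at 4.80 to 5.43. Of 4 markers each for astrocytes, neurons, myeloid, endothelial and epithelial cells and 3 for the oligodendrocyte lineage, the mean signal of each list lay between 4.36 and 6.37 on every array, and no detection calls were used. The highest of these genes, the neuronal SNAP25, read 7.93 to 8.66, above the glioblastoma-line marker NES at 6.37 to 6.90. By limma, 1.81% of all genes rose and 2.96% fell. Of the 6 glioblastoma markers measured, 1 rose, TNC (difference 0.45, adjusted p = 0.038 by limma). The 2 that fell were FN1 (difference -0.63, adjusted p = 0.032 by limma) and CHI3L1 (difference -0.51, adjusted p = 0.038 by limma). Of the other markers 1 fell, the neuronal SNAP25 (difference -0.59, adjusted p = 0.031 by limma). Their part in the results was not tested. Spiked hybridisation controls (18 probe sets) read 9.56 and 9.90 on the control arrays and 10.1 on both NeuroD2 arrays, a difference of 0.39. Leaving out control replicate 1 gave 0.22, and leaving out control replicate 2 gave 0.56. Spiked polyadenylated controls (24 probe sets) read 6.95 on control replicate 1 and 7.96 to 8.03 on the other arrays. The 3′ minus 5′ signal of GAPDH lay between -0.12 and -0.08 on all arrays. That of ACTB was 0.14 and 0.13 on the control arrays and 0.07 and 0.08 on the NeuroD2 arrays, without overlap. The 18S RNA probe set read 11.3 on control replicate 1 and 12.1 on each other array. The part of these controls in the results was not tested.

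RPL27A encodes a large-subunit protein. It read 6.89 and 6.82 on the control arrays and 7.29 and 7.23 on the NeuroD2 arrays. Both NeuroD2 arrays lay above both control arrays, and the replicates of each group lay close together, with means of 6.86 ± 0.05 and 7.26 ± 0.04 (SD, n = 2 each). NeuroD2 minus control was 0.40 with a standard error of 0.08 and a 95% interval of 0.22 to 0.59. This is 1.32-fold (adjusted p = 0.0456 by limma).

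The call of RPL27A lies close to the threshold. With a control array left out, its adjusted p by limma was 0.141 (replicate 1) or 0.151 (replicate 2). With a NeuroD2 array left out, it was 0.334 (replicate 1) or 0.263 (replicate 2). These refits called few genes of any kind, namely 0, 0, 57 and 66 of 18132 against 864 with all arrays. The difference itself lay between 0.37 and 0.44 under every alternative run. Fitted among all probe sets, RPL27A's adjusted p was 0.062. The spiked hybridisation controls moved by a like amount between the groups (0.39), and their part in this result was not tested.

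The RPL27A value comes from a single probe set with a low signal for this family. The gene's other 2 probe sets name several genes and were not used. Which transcripts of the gene the single probe set detects was not tested. RPL27A is one of 3 members with a signal below 8, the others being the paralogs RPL3L and RPL10L. The 120 bases up to its annotated start hold 1 CCGGAA, in capitals, and no CAGATG.
RPL27A upstream (chr11:8682672-8682791, plus strand): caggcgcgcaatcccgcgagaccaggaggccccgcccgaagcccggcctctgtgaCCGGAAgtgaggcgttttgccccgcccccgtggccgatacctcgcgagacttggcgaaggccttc

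The 41 large-subunit genes had a median difference of 0.007, with 22 above 0 and 19 below. Both NeuroD2 arrays lay above both controls in 8 (19.5%, against 24.2% of all genes) and below in 7 (17.1%, against 26.6%), and beside RPL27A none passed the test. RPL3, a protein close to the peptidyl transferase centre, had the next highest difference. It read 13.30 and 13.14 on the control arrays and 13.38 and 13.37 on the NeuroD2 arrays. On this probe set the gap between the controls was as wide as the difference of 0.16 (adjusted p = 0.354 by limma). All 3 of its probe sets gave values above 0, from 0.097 to 0.25, and none passed. The second brightest read 12.78 and 12.79 on the control arrays and 12.88 and 12.89 on the NeuroD2 arrays.

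RPL35A, which is mutated in some patients with the inherited anaemia Diamond-Blackfan, read 11.31 and 11.20 on the control arrays and 11.40 and 11.33 on the NeuroD2 arrays (difference 0.11). RPL21 read 13.48 and 13.57 on the control arrays and 13.61 and 13.60 on the NeuroD2 arrays (difference 0.08). RPL4, which lines the exit tunnel of the nascent chain, read 13.31 and 13.43 on the control arrays and 13.44 and 13.43 on the NeuroD2 arrays (difference 0.07). In these 3 genes the groups did not overlap, but each gap between the groups was narrower than the gap between the controls.

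RPL13 had the lowest difference in the large subunit. It read 11.77 and 11.72 on the control arrays and 11.57 and 11.59 on the NeuroD2 arrays. The groups were apart by more than their spread, and the difference of -0.16 (95% interval -0.34 to 0.01, adjusted p = 0.264 by limma) did not pass. RPL13 has 1 probe set.

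RPL35 and RPL26 sit at the exit of the tunnel, where nascent chains meet targeting factors. RPL35 read 13.48 and 13.43 on the control arrays and 13.35 and 13.38 on the NeuroD2 arrays (difference -0.09), and its second probe set gave -0.11. RPL26 read 13.34 and 13.40 on the control arrays and 13.30 and 13.28 on the NeuroD2 arrays (difference -0.08). Both NeuroD2 arrays were below both controls in each of them. Of 7 genes listed for the tunnel exit, 6 were measured. The other 4 (RPL19, RPL23A, RPL31 and RPL39) had overlapping groups and differences between -0.015 and 0.030, and 0 of the 6 passed the test.

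The stalk, which recruits elongation factors to the ribosome, was represented by RPLP1 and RPLP2. RPLP1 read 14.002 and 14.033 on the control arrays and 13.963 and 14.025 on the NeuroD2 arrays, a difference of -0.02 with overlapping groups. RPLP2 read 13.58 and 13.55 on the control arrays and 13.53 on both NeuroD2 arrays, a difference of -0.03 with the NeuroD2 arrays just below. Neither passed.

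RPL5 and RPL11 form a particle with the 5S RNA, which also binds MDM2 and thereby stabilises p53 when ribosome assembly is disturbed. RPL5 read 12.84 and 12.86 on the control arrays and 12.83 and 12.85 on the NeuroD2 arrays. RPL11 read 13.76 and 13.79 on the control arrays and 13.77 and 13.78 on the NeuroD2 arrays. The groups overlapped in both, with differences of -0.014 (95% interval -0.19 to 0.16) and -0.0018 (95% interval -0.18 to 0.17).

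RPL7 was the member with the widest gap between the controls. It read 12.32 and 12.63 on the control arrays and 12.38 and 12.47 on the NeuroD2 arrays. Both NeuroD2 arrays lay inside the range of the controls, and the interval of the difference, from -0.33 to 0.24, was wide for this family. The median standard error of the 71 differences was 0.073.

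The 23 small-subunit genes lay in a narrow band from -0.076 to 0.032, with a median of -0.023. Of these, 4 were above 0 and 19 below, 0 passed the test, and 0 had an unadjusted p below 0.05. Both NeuroD2 arrays lay below both controls in 7 (30.4%) and above in 1 (4.35%), RPS7, against 26.6% and 24.2% of all genes. The median was -0.010 without control replicate 1 and moved to between -0.0056 and -0.00080 under the 3 other choices of probe set. Those choices bring in probe sets with a far lower signal, such as 3.25 for one of RPS6 against 13.27 for the one used. The choice without s_at and x_at kinds also leaves out genes such as RPS3 and RPS7. The lean towards lower values is small and depends on the probe sets chosen, and the part of dim probe sets in this was not tested.

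RPS28, a protein of the head of the small subunit near the message exit, had the lowest value. It read 13.75 and 13.78 on the control arrays and 13.68 and 13.70 on the NeuroD2 arrays (difference -0.08). RPS21 read 13.88 and 13.80 on the control arrays and 13.76 and 13.79 on the NeuroD2 arrays (difference -0.07). The NeuroD2 arrays were the lower ones in both genes, by less than 0.1.

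RPS19, the gene most often mutated in Diamond-Blackfan anaemia, read 13.87 and 13.71 on the control arrays and 13.72 and 13.74 on the NeuroD2 arrays. The groups overlapped, since control replicate 1 alone was high, and the difference was -0.06. RPS6, the protein that S6 kinases phosphorylate downstream of mTOR, read 13.29 and 13.26 on the control arrays and 13.26 and 13.28 on the NeuroD2 arrays, a difference of -0.011. The level of the message says nothing of its phosphorylation.

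By position, 10 of 12 listed genes of the head were measured and had a median of -0.023, with 3 below without overlap (30.0%, against 26.6% of all genes) and 0 above. Of 6 listed for the platform, 3 (RPS3A, RPS14 and RPS27) were measured, with differences between -0.043 and 0.0029. Of 10 listed Diamond-Blackfan genes of both subunits, 8 were measured, with 2 above without overlap (RPS7 and RPL35A) and 2 below (RPS24 and RPL26), which is 25% each way and near the shares of all genes. None of these genes passed the test.

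The 7 paralogs ran from -0.17 to 0.17, wider than the small subunit and narrower than the large subunit (-0.16 to 0.40), and their median was -0.009. Their signals ran from 4.07 to 13.41, while those of the small subunit all lay between 12.85 and 13.92. RPS27L, a p53-induced copy of RPS27, had the lowest difference of all 71 genes. It read 13.32 and 13.41 on the control arrays and 13.22 and 13.17 on the NeuroD2 arrays, and the groups did not overlap. The difference of -0.17 (95% interval -0.37 to 0.02) had an adjusted p of 0.270 by limma, which was 0.049 when limma's prior followed the signal level. Its other probe set gave 0.12 at a far lower mean signal of 3.85. That probe set read 3.83 and 3.75 on the control arrays and 3.75 and 4.07 on the NeuroD2 arrays, with overlap. RPS27 itself read 13.45 and 13.48 on the control arrays and 13.46 and 13.43 on the NeuroD2 arrays, with overlap and a difference of -0.02. The difference between the 2 copies was not tested.

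RPL7L1, an RPL7-like protein, had the highest difference among the paralogs. It read 10.79 and 10.62 on the control arrays and 10.88 on both NeuroD2 arrays. The difference of 0.17 (95% interval -0.04 to 0.39, adjusted p = 0.314 by limma) was about as large as the gap between the controls. All 7 of its probe sets gave values above 0, from 0.0039 to 0.22.

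RPL39L, a copy of RPL39 best known from male germ cells, read 9.57 and 9.69 on the control arrays and 9.49 on both NeuroD2 arrays (difference -0.14, adjusted p = 0.371 by limma). The NeuroD2 arrays were lower, and its partner RPL39 had overlapping groups at -0.0041. RPL26L1 read 11.22 and 11.25 on the control arrays and 11.29 on both NeuroD2 arrays (difference 0.05), while its partner RPL26 had -0.08 as given above. Neither RPL26L1 nor RPL26 passed the test.

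RPL22L1 read 13.15 and 13.16 on the control arrays and 13.12 on both NeuroD2 arrays (difference -0.04), and RPL22, its partner, gave 0.02 with overlap. RPL10L, an intronless copy of the X-linked RPL10 known from testis, read 4.93 and 4.73 on the control arrays and 5.03 and 4.82 on the NeuroD2 arrays. RPL3L, a copy of RPL3 known from striated muscle, read between 4.07 and 4.10 on every array. The groups overlapped in RPL10L and RPL3L, and without detection calls neither was called absent.

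The members were also split by whether a pyrimidine tract opens the message. The 42 genes with a tract had a median difference of -0.015 and a median absolute difference of 0.024. The 17 with a promoter in the table and no tract had 0.0098 and 0.047. Without the paralogs these became 41 genes with a median absolute difference of 0.024 and 13 genes with 0.032. In the first set shown above, RPL27A, which rose, and RPL13, with the lowest value in the large subunit, both carry a tract.

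Most of the 71 genes have further probe sets that were not used to represent them, and these were set beside the main values. In all, 186 probe sets named 1 of these genes alone. Fitted among all 44988 single-gene probe sets by limma, 0 of the 186 rose and 2 fell, against 1.32% and 1.70% of all probe sets. The median absolute difference was 0.024 among the 88 with a mean signal of 13 or more, 0.043 among 21 from 12 to 13, 0.084 among 31 from 8 to 12, and 0.167 among 46 below 8.

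Both probe sets that fell belong to RPS15A, which encodes a small-subunit protein. One read 6.43 and 6.81 on the control arrays and 5.73 and 5.89 on the NeuroD2 arrays, a difference of -0.82 (95% interval -1.16 to -0.47, adjusted p = 0.046 by limma). The other read 6.32 and 6.35 on the control arrays and 5.72 and 5.43 on the NeuroD2 arrays, a difference of -0.76 (95% interval -1.04 to -0.48, adjusted p = 0.034 by limma). The groups were well apart on both.

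The 3 brightest probe sets of RPS15A gave -0.045, -0.037 and -0.014, and the next gave -0.12. The dim and bright probe sets of this gene thus read different amounts of change. Which transcripts each one detects was not tested. With any 1 array left out, neither dim probe set passed: the adjusted p by limma lay between 0.175 and 0.273 for the first and between 0.105 and 0.197 for the second. Their differences stayed at -1.01 to -0.63 and -0.90 to -0.62, and such refits call few genes of any kind, as given above for RPL27A.

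Probe sets of the same gene often pointed in different directions. Of 52 genes with more than 1 probe set, all pointed one way in 20 and both ways in 32, and in 38 the range was below 0.2. RPL31, at the tunnel exit, had -0.40, -0.41 and 0.33 on 3 probe sets with mean signals between 7.44 and 7.94 and -0.015 on the one that represents it. RPL28 ranged from -0.28 to 0.32 over 9 probe sets, and a dim probe set of RPS28 gave -0.38. None of these passed the adjusted threshold.

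**Figure D3:**
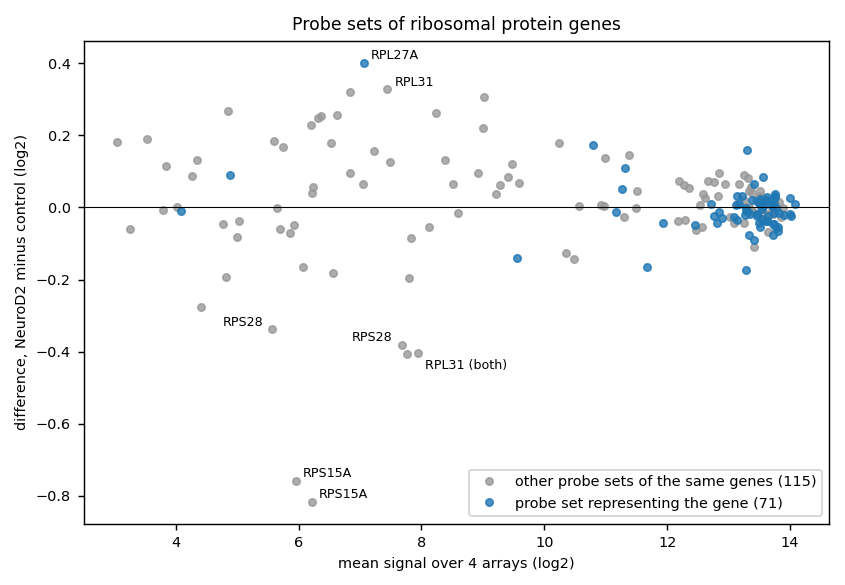
Difference between groups (log2, vertical axis) against the mean signal over 4 arrays (log2, horizontal axis) for the 186 probe sets of ribosomal protein genes. Blue points represent the gene and grey points are its other probe sets, and the largest differences, from -0.82 to 0.40, lie at signals below 8.

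Other genes of translation and ribosome production were set beside the ribosomal proteins. Of 50 listed ribosome biogenesis factors, which process and assemble pre-ribosomes in the nucleolus, 47 were measured. Both NeuroD2 arrays lay above both controls in 31 (66.0%) and below in 3, against 24.2% and 26.6% of all genes, and the median difference was 0.15. By limma, 0 passed the threshold in the main comparison and 13 were higher at an unadjusted p below 0.05, as were 1680 of the 18132 genes. When the prior followed the signal level, 10 passed, and that fit called 11.3% of all genes in either direction. When dim genes were left out, 12 passed, and that fit called 23.0% of all genes.

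RRP12, a factor of pre-ribosome export, read 9.88 and 9.78 on the control arrays and 10.23 and 10.18 on the NeuroD2 arrays (difference 0.37, adjusted p = 0.058 by limma). WDR43, a small-subunit processome protein, read 8.77 and 8.78 on the control arrays and 9.13 and 9.14 on the NeuroD2 arrays (difference 0.36, adjusted p = 0.0507 by limma). The groups did not overlap in either gene, and the replicates of WDR43 nearly coincided. Of these 47 genes, 19 lay within 0.1 of no difference (40.4%).

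Other initiation factors formed a further list. All 20 listed were measured, 13 were above without overlap (65.0%, against 24.2% of all genes) and 3 below (15.0%, against 26.6%), and the median was 0.10. EIF4A1, the helicase of the cap complex, read 7.93 and 7.79 on the control arrays and 8.11 and 8.10 on the NeuroD2 arrays (difference 0.25). Its dimmest probe set gave -0.18. EIF1AX, a scanning factor, read 9.59 and 9.89 on the control arrays and 9.36 and 9.52 on the NeuroD2 arrays (difference -0.30). None of the 20 passed the test in the main comparison. Under the alternatives, up to 1 of the 20 rose, in fits that called up to 23.0% of all genes.

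A further list held translation genes that share the pyrimidine tract with ribosomal proteins, such as elongation factors. Of 21 listed, 19 were measured, with 5 above without overlap (26.3%, against 24.2% of all genes) and 2 below (10.5%, against 26.6%), and 0 passed. Their median was 0.019, and 15 of the 19 lay within 0.1 of no difference. The median depended on the probe sets, with 0.053 when probe sets were averaged, 0.074 for the dimmest and 0.13 without the s_at and x_at kinds. EIF3A, the largest subunit of the initiation factor that binds the small subunit, had the largest value, with 10.48 and 10.71 on the control arrays and 10.89 and 11.00 on the NeuroD2 arrays (difference 0.35, adjusted p = 0.122 by limma). HNRNPA1, an RNA-binding protein of splicing, had the lowest, with 13.20 and 13.28 on the control arrays and 13.03 and 13.05 on the NeuroD2 arrays (difference -0.20, adjusted p = 0.204 by limma). When the prior followed the signal level, EIF3A passed at an adjusted p of 0.026 and HNRNPA1 at 0.023 by limma, and EIF3A also passed without dim genes (0.038).

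Of the 12 genes of RNA polymerase I, which makes ribosomal RNA, 4 were above without overlap (33.3%, against 24.2% of all genes) and 3 below (25%, against 26.6%), the median was 0.058 and 0 passed. TAF1A, a subunit of its promoter selectivity factor, had 0.38 (adjusted p = 0.068 by limma), and POLR1A, the largest polymerase subunit, had 0.20. Of 73 mitochondrial ribosomal protein genes, 31 were above without overlap (42.5%, against 24.2% of all genes) and 13 below (17.8%, against 26.6%), with a median of 0.024 and a median absolute difference of 0.105. None of the 73 passed in the main comparison, and MRPS31 and MRPL32 had the largest values at 0.35 each. Under the alternatives, up to 6 of the 73 rose and up to 1 fell, in fits that called up to 23.0% of all genes. Up to 1 of the 12 RNA polymerase I genes rose under the same alternatives.

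Of 16 genes of mTOR signalling and its control of tract messages, 1 fell and 0 rose, against 2.96% and 1.81% of all genes. SESN1, a stress-induced protein that restrains mTOR complex activity, read 8.45 and 8.53 on the control arrays and 7.69 and 7.91 on the NeuroD2 arrays. Both NeuroD2 arrays were well below, and the difference was -0.69 (95% interval -0.94 to -0.44, or 0.620-fold, adjusted p = 0.025 by limma). With 1 array left out, its adjusted p by limma was 0.141 (control replicate 1), 0.157 (control replicate 2), 0.178 (NeuroD2 replicate 1) or 0.0844 (NeuroD2 replicate 2), in refits that call few genes of any kind. Its difference lay between -0.82 and -0.58 under every alternative run. The median of the 16 was 0.0037, and MTOR and LARP1, the protein that binds tract messages, had 0.05 and 0.14 without passing.

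**Figure D4:**
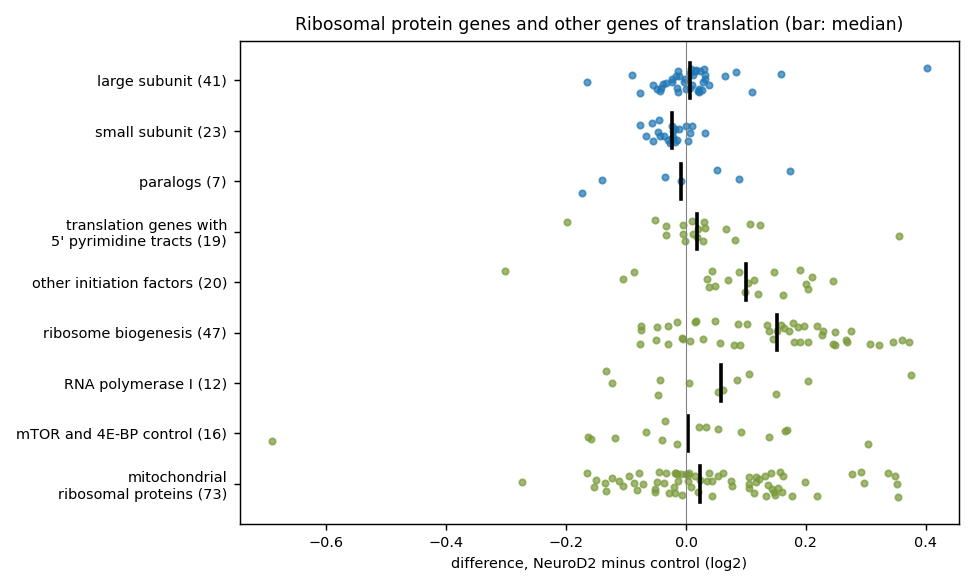
Difference between groups (log2, horizontal axis) for each gene of the ribosomal protein groups (blue) and of other translation lists (green), with the number of genes in parentheses and a black bar at each median. The medians run from -0.023 for the small subunit to 0.15 for ribosome biogenesis.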

How the data were processed

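The values are the authors' deposited table of 49395 probe sets on 4 PrimeView arrays, read as log2 signal from the range of the values. How the signals were corrected, normalized and summarised is not given in the sources used here. Of these probe sets, 44988 carry 1 gene symbol in the platform annotation and were used. The others (1832 with several symbols, 2473 with none and 102 controls) did not name 1 gene alone. The comparison used lmFit and eBayes of limma 3.58.1 in R 4.3.3 (two-sided, 2 residual and 3.84 prior degrees of freedom), which was tested on simulated data first. No exact permutation test was used, since 2 arrays against 2 allow no p under 0.333. The number of arrays limits the precision. Promoters were read with Python 3.11.15 and pandas 2.3.3. Named genes were members past the threshold, the 8 highest and 8 lowest differences, all paralogs with partners, the stalk and 5S partners, and, from each other list, members past the threshold or else the 2 largest absolute differences. Other genes were named after their values were seen. The members and lists were chosen with earlier results of these data known. Alternatives were a replicate block, leaving out each array, other normalizations, priors, a filter on dim genes and other choices of probe set.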

Additional observations from a re-analysis of the deposited data

How the results depend on the processing

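Among the named ribosomal protein genes, 298 values under the alternatives kept direction and side of the threshold, 32 uncalled values changed sign, 7 lost the call (all RPL27A), 1 gained it (RPS27L) and 0 called values reversed. The adjusted p of RPL27A by limma ran from 0.0083 to 0.334. With a replicate block the fit called 335 genes against 864, and 0 ribosomal protein genes rose (RPL27A, adjusted p = 0.0772). Deviations of same-numbered arrays correlated at r = 0.082 over genes in 2 pairs. With 2 arrays per group, this cannot show whether the cultures were paired. The main fit has no block because the labels do not say that the numbers pair cultures. The count of genes that rose was also 0 with probe sets free of the s_at and x_at kinds (41 genes measured), 0 with the dimmest probe sets, and 0 to 0 with 1 array left out. The count that fell was 1 with an intensity trend (RPS27L), 1 with the mean of probe sets and 1 with the dimmest (RPS15A in both), in fits that called 11.3%, 6.55% and 1.26% of all genes in either direction. Genes above without overlap numbered 17 with the dimmest probe sets (against 23.5% of all genes) and 14 to 28 with 1 array left out (against 34.2% to 43.3% of all genes). Genes below numbered 8 of the 41 measured without s_at and x_at probe sets (against 25.3% of all genes). With 1 array left out they numbered 22 to 37 (against 36.3% to 43.8% of all genes). The median of all 71 genes was -0.0059 with array median centring, 0.011 with the mean of probe sets and 0.0095 with the dimmest. It was -0.011 to -0.0034 with 1 array left out. Over the 41 genes measured without s_at and x_at probe sets the median was -0.0015. The large-subunit median was 2.5e-05 with quantile normalization, 0.025 with the mean of probe sets, 0.021 without s_at and x_at probe sets and -0.0054 to 0.014 with 1 array left out. The small-subunit median was -0.0056 with the mean of probe sets, -0.00080 without s_at and x_at probe sets and -0.0015 with the dimmest. It was -0.030 to -0.010 with 1 array left out. The subunit medians without s_at and x_at probe sets cover only the genes of each subunit that are among the 41. The causes were not tested. The split by signal level and the test of every probe set on its own were chosen after seeing the data. With 1 array left out of a group, the lone array is assumed to vary like the other group.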
